A study of Danio rerio with 31 samples.

Results

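The genes of melatonin synthesis and of the pineal gland were followed on Agilent one-colour arrays of whole zebrafish. They were 9 genes chosen by symbol, namely tph1a, tph2, aanat1, aanat2, asmt, drd4a, exorh, otx5 and crx. All probes whose accession was matched to one of these symbols were taken, which gave 10 probes of 8 genes among 43603 probes, of which 16624 were matched to 11482 genes. No probe was matched to the current symbol asmt, and asmt2, which carries the older symbol asmt, is given beside the members. Probes had to exceed background clearly on 75% or more of a set's arrays to be tested, and by this filter 7 of the 9 genes were tested in the time course and 5 at 48 and 50 hours post-fertilization (hpf). For otx5 and crx, with 2 probes each, the brighter one was read as the gene and the other is given beside it.

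Melatonin is made from tryptophan in pineal and retinal photoreceptors. Tryptophan hydroxylase starts the conversion to serotonin, arylalkylamine N-acetyltransferase (aanat) acetylates serotonin, and acetylserotonin O-methyltransferase (asmt) completes the hormone. The hormone is released at night in vertebrates, and the pineal gland of zebrafish is itself light-sensitive and holds its own clock, with exorh as its rod-like opsin and the homeobox factors otx5 and crx acting in pineal and retinal photoreceptors.

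The time course held 12 arrays under constant dark (DD) and 12 under a 14 h:10 h light/dark cycle (LD), each from a pool of 40 wild-type AB larvae kept at 28°C. All larvae were raised under the light/dark cycle, and from 5 days post-fertilization the DD dishes stayed dark while pools were taken every 4 h from 0 to 44 h, where 0 and 24 h are lights-on. Another 7 arrays came from embryos at 48 and 50 hpf, of which 3 were mitfa morphants that had received 13 ng of a morpholino against the start codon of mitfa, 2 were control morphants injected with a standard morpholino and 2 were wild type. Each time point had 1 array per condition, so hours were grouped into night (16, 20, 40 and 44 h), day (4, 8, 12, 28, 32 and 36 h) and lights-on. The p-values of the group comparisons rest on the spread among the pools of a group, taken over all groups of a fit. In the time course that spread also holds change between hours and days. At 48 and 50 hpf it also holds differences between ages and between the kinds of control. In DD, night and day mean the subjective hours.

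All values are log2 quantile-normalized intensities, and levels were compared within a probe only. The share of spots well above background was 75.2% to 92.0% on the time-course arrays and 71.3% to 75.3% at 48 and 50 hpf. The DD arrays lay on 3 slides and the LD arrays on 3 others scanned on another day, so DD against LD cannot be told apart from slide and scan. Night minus day was also taken within the 2 slides of a condition that held both kinds of hours. The first of these held only 1 day array, at 28 h, so the first value of each such pair rests on it. Of the 4 pineal markers exorh, parapinopsina, parietopsin and aanat2, 2 had a matched probe and 1, exorh, was detected. In these whole animals fewer cells of a type and less RNA per cell cannot be told apart.

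In DD, 0 of the 7 tested genes were called between night and day, against 0.717% of all probes called in either direction (limma, adjusted p below 0.05). An unadjusted p below 0.05 was found for 4 of the 7, against 5377 of 35412 probes. In LD, 4 of the 7 were higher at night than in the day, namely aanat1, exorh, tph1a and drd4a, by 3.21-, 2.30-, 2.15- and 1.83-fold, against 0.799% of all probes called higher and 2.42% called in either direction. crx was 1.34-fold higher at night in LD with an adjusted p of 0.0664, and otx5 and tph2 had differences near 0. In day hours aanat1 and drd4a were higher in DD than in LD, by 1.97- and 1.92-fold. The study lists both as dark-induced from these same arrays, and the members were chosen with such results known. The shares of all probes are therefore a scale beside the counts and not a test of the members.

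**Figure D1:**
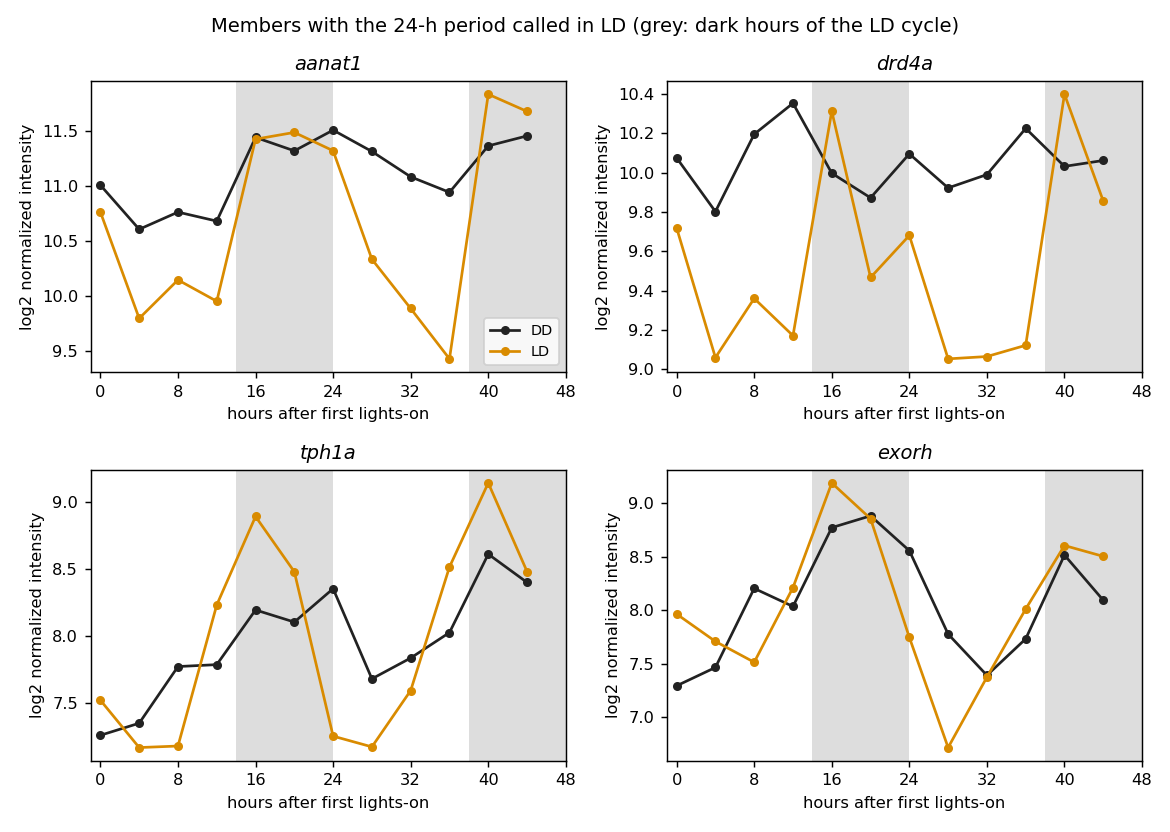
Log2 normalized intensity of aanat1, drd4a, tph1a and exorh (y axis, own range per panel) against hours after the first lights-on (x axis), 1 point per array, in DD (black) and LD (orange), with the dark hours of the LD cycle in grey. In LD, aanat1 and drd4a lay low through 12 and 36 h, while tph1a and exorh were already above their values at 4 and 28 h by then.

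The first enzyme of the pathway was read through tph1a and tph2, both tryptophan hydroxylases. In DD, tph1a had 8.20, 8.11, 8.61 and 8.40 at the night hours of 16, 20, 40 and 44 h, against a lowest of 7.35, a median of 7.78 and a highest of 8.03 on the 6 day arrays. The groups did not overlap, but the difference of 0.58 ± 0.26 (SE) did not pass the limit after adjustment (p = 0.0334, adjusted p = 0.281, limma). By Fisher's g test of the 24-h period tph1a had p = 0.258 in DD, with a cosine amplitude of 0.40 ± 0.13 and a phase of 17.0 ± 1.2 h (SE).

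In LD, tph1a had 8.89, 8.48, 9.14 and 8.48 at the night hours, against a lowest of 7.17, a median of 7.39 and a highest of 8.51 in the day. The groups overlapped only through the array at 36 h. Before lights-off, at 12 and 36 h, tph1a had 8.23 and 8.51, while the other 4 day arrays had 7.17 to 7.60. The values at lights-on, 7.52 at 0 h and 7.26 at 24 h, were as low as those of the day. The difference of night minus day was 1.10 ± 0.26 (adjusted p = 0.0207, limma), and within the 2 LD slides that hold both kinds of hours it was 1.51 and 0.76. This call was lost when the array at 16 h was left out (1.05, adjusted p = 0.0667) and also without that at 8, 28 or 40 h, with differences of 1.01, 1.01 and 0.97. With the lights-on hours of 0 and 24 h counted as night it was lost as well, at 0.65 (adjusted p = 0.438). The g test gave tph1a the smallest p of the members in LD, 3.1e-05, with an amplitude of 0.96 ± 0.08 and a phase of 16.1 ± 0.3 h. DD minus LD of tph1a was 0.10 in the day (adjusted p = 0.913, limma) and -0.42 at night (adjusted p = 0.720).

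tph2, the tryptophan hydroxylase known from brain serotonin neurons, varied little. Its values were 10.42 to 10.85 over all DD arrays and 10.36 to 10.85 over all LD arrays. Night minus day was 0.11 ± 0.10 in DD and 0.01 ± 0.10 in LD, with 95% intervals of -0.09 to 0.32 and -0.20 to 0.21. The 24-h period was not the dominant one in either condition.

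aanat1, the acetyltransferase that in teleost fish is expressed mainly in the retina, showed the largest night difference of the members in LD. In DD it had 11.45, 11.32, 11.37 and 11.46 at the night hours, against a lowest of 10.61, a median of 10.86 and a highest of 11.32 in the day. The groups lay close together without overlap. Night minus day in DD was 0.50 ± 0.17 (p = 0.00724, adjusted p = 0.156, limma), with 0.07 and 0.40 within slides and 0.70 and 0.30 in the first and second cycle. With only the first cycle the DD difference was called (adjusted p = 0.00787).

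In LD, aanat1 had 11.43, 11.49, 11.84 and 11.68 at the night hours, against a lowest of 9.43, a median of 9.92 and a highest of 10.34 in the day. All 4 night arrays lay above all 6 day arrays. The difference was 1.68 ± 0.17 (95% interval 1.34 to 2.03, adjusted p = 7.8e-06, limma), and it was 1.12 and 2.10 within the 2 LD slides that hold both kinds of hours. Unlike tph1a, aanat1 was still at 9.96 and 9.43 at 12 and 36 h, before lights-off, and at 10.77 and 11.32 at the lights-on hours of 0 and 24 h.

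The day values of aanat1 in DD were all above those of LD, while the night values of both conditions overlapped. DD minus LD was 0.98 ± 0.15 in the day (adjusted p = 6.5e-04, limma) and -0.21 ± 0.18 at night (adjusted p = 0.819).

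The probe of aanat2, the acetyltransferase of the fish pineal gland, was well above background on 2 of the 24 time-course arrays and on 0 of the 7 arrays at 48 and 50 hpf. Its processed signal ranged from 2.42 to 35.0 with a median of 3.68 in the time course. The highest value, at 12 h in DD, was 4.76 on the normalized log2 scale, against 2.30 at 12 h in LD. It was not tested for a difference between groups.

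The last enzyme of the pathway had no probe matched to the current symbol asmt, but asmt2, which RefSeq also lists under the older symbol asmt, was detected on every array. In DD, asmt2 had 10.21, 9.85, 10.18 and 9.55 at the night hours, against a lowest of 9.29, a median of 9.75 and a highest of 9.99 in the day. In LD it had 10.37, 9.54, 10.11 and 9.29 at the night hours, against a lowest of 10.12, a median of 10.25 and a highest of 10.43 in the day. Night and day overlapped in both conditions, with differences of 0.26 ± 0.19 in DD (adjusted p = 0.545, limma) and -0.44 ± 0.19 in LD (adjusted p = 0.281). All 6 DD day arrays lay below all 6 LD day arrays, and DD minus LD in the day was -0.58 ± 0.17 (adjusted p = 0.0746). The g test called a 24-h period of asmt2 in DD (p = 0.0647) and in LD (p = 0.0116). After adjustment neither passed the limit (adjusted p = 0.356 and 0.131). The limma F test of the 24-h terms passed it in LD (adjusted p = 0.0185) and not in DD (adjusted p = 0.116). The amplitude was 0.37 ± 0.09 in DD and 0.53 ± 0.09 in LD. The phase was 14.5 ± 0.9 h in DD and 10.4 ± 0.7 h in LD. The DD phase lay near the hour of lights-off, where the night minus day difference can miss a rhythm, and the LD phase lay earlier.

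drd4a encodes a dopamine D4 receptor, a class through which dopamine is known to lower melatonin synthesis in vertebrate retina. In DD it had 9.997, 9.87, 10.03 and 10.06 at the night hours, against a lowest of 9.80, a median of 10.09 and a highest of 10.35 in the day. Here the groups overlapped, and night minus day was -0.09 ± 0.14 (adjusted p = 0.811, limma). In LD, drd4a had 10.31, 9.47, 10.40 and 9.86 at the night hours, against a lowest of 9.05, a median of 9.09 and a highest of 9.36 in the day. The groups did not overlap, and within each night the array 2 h after lights-off was above the one 4 h later. The difference was 0.87 ± 0.14 (adjusted p = 0.00118, limma), and 0.84 and 1.03 within slides.

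The day values of drd4a in DD were thus all above those of LD and within the range of the LD nights. DD minus LD was 0.94 ± 0.13 in the day (adjusted p = 1.7e-04, limma) and -0.02 ± 0.16 at night (adjusted p = 0.990). In DD another period than 24 h dominated, and in LD the g test gave p = 0.00478 with a dominant 24-h period.

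exorh encodes exo-rhodopsin, the opsin of pineal photoreceptors. In DD it had 8.77, 8.88, 8.52 and 8.09 at the night hours, against a lowest of 7.39, a median of 7.75 and a highest of 8.20 in the day. The groups overlapped through the arrays at 44 and 8 h. The difference was 0.80 ± 0.27 (p = 0.00685, adjusted p = 0.152, limma), with 1.05 and 0.74 within slides.

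In LD, exorh had 9.19, 8.86, 8.60 and 8.50 at the night hours, against a lowest of 6.71, a median of 7.61 and a highest of 8.21 in the day. The groups did not overlap, and the highest day arrays were those at 12 and 36 h, with 8.21 and 8.01, the same hours as for tph1a. The difference was 1.2 ± 0.27 (adjusted p = 0.0146, limma), with 2.31 and 0.86 within slides. The 2.31 rests on the lowest day array, with 6.71 at 28 h. Over all slides the difference no longer passed the limit without the array at 16 h (1.07, adjusted p = 0.0665) or with 0 and 24 h counted as night (0.89, adjusted p = 0.142). DD minus LD was 0.18 ± 0.24 in the day (adjusted p = 0.826) and -0.22 ± 0.29 at night (adjusted p = 0.902), and the phase was 17.7 ± 1.4 h in DD and 17.3 ± 0.5 h in LD.

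Markers of retinal photoreceptors, which share genes with the pineal gland, were read beside these results. Of 3 rod and 4 cone markers listed, 2 of each were detected. The rod markers gnat1 and saga had summed signals of 17606 to 21333 at night in LD, against 13849 to 17678 in the day, and the cone markers gnat2 and arr3a had 62305 to 126428 at night, against 82025 to 349602. The g test called a 24-h period in LD for each of these transcripts, against 16.9% of all probes, so the sums do not count cells. The part of these markers in the exorh and aanat1 results was not tested.

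crx, the cone-rod homeobox factor, had 15.34, 14.76, 15.39 and 15.04 at the night hours of DD, against a lowest of 14.61, a median of 14.79 and a highest of 15.12 in the day. The highest DD arrays were those at 16 and 40 h, and those at 20 and 44 h lay within the range of the day. Night minus day in DD was 0.28 ± 0.12 (adjusted p = 0.251, limma). In LD, crx had 15.45, 15.17, 15.31 and 15.22 at the night hours, against a lowest of 14.76, a median of 14.87 and a highest of 15.05 in the day. All 4 night arrays were above all 6 day arrays, with a difference of 0.42 ± 0.12 (adjusted p = 0.0664, limma). It passed the limit with the normexp background correction (0.43, adjusted p = 0.0390), with the slide as a random block (0.40, adjusted p = 0.0474) and without the DD array at 20 h (adjusted p = 0.0345). The other crx probe gave 0.47 ± 0.11 in LD and passed the limit (adjusted p = 0.0292). The g test was called in DD (p = 0.0265, phase 15.9 ± 0.8 h, amplitude 0.27 ± 0.06) and not in LD (p = 0.351, phase 17.4 ± 1.3 h, amplitude 0.23 ± 0.08).

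otx5, an orthodenticle-type homeobox factor of the zebrafish pineal gland, had 12.54, 12.48, 12.98 and 12.56 at the night hours of DD, against a lowest of 12.52, a median of 12.68 and a highest of 12.77 in the day. In LD it had 12.80, 12.66, 13.11 and 12.87 at the night hours, against a lowest of 12.53, a median of 12.66 and a highest of 13.00 in the day. The groups overlapped in both conditions. Night minus day was -0.02 ± 0.11 in DD (95% interval -0.25 to 0.21) and 0.14 ± 0.11 in LD (95% interval -0.09 to 0.37). The probes of otx5 differed in the comparison of conditions, since the brighter one gave a DD minus LD difference of -0.06 ± 0.10 in the day (adjusted p = 0.870) and the other -0.37 ± 0.10 (adjusted p = 0.0635). On the other probe all 6 DD day arrays, at 11.76 to 12.17, lay below all 6 LD day arrays, at 12.21 to 12.72.

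**Figure D2:**
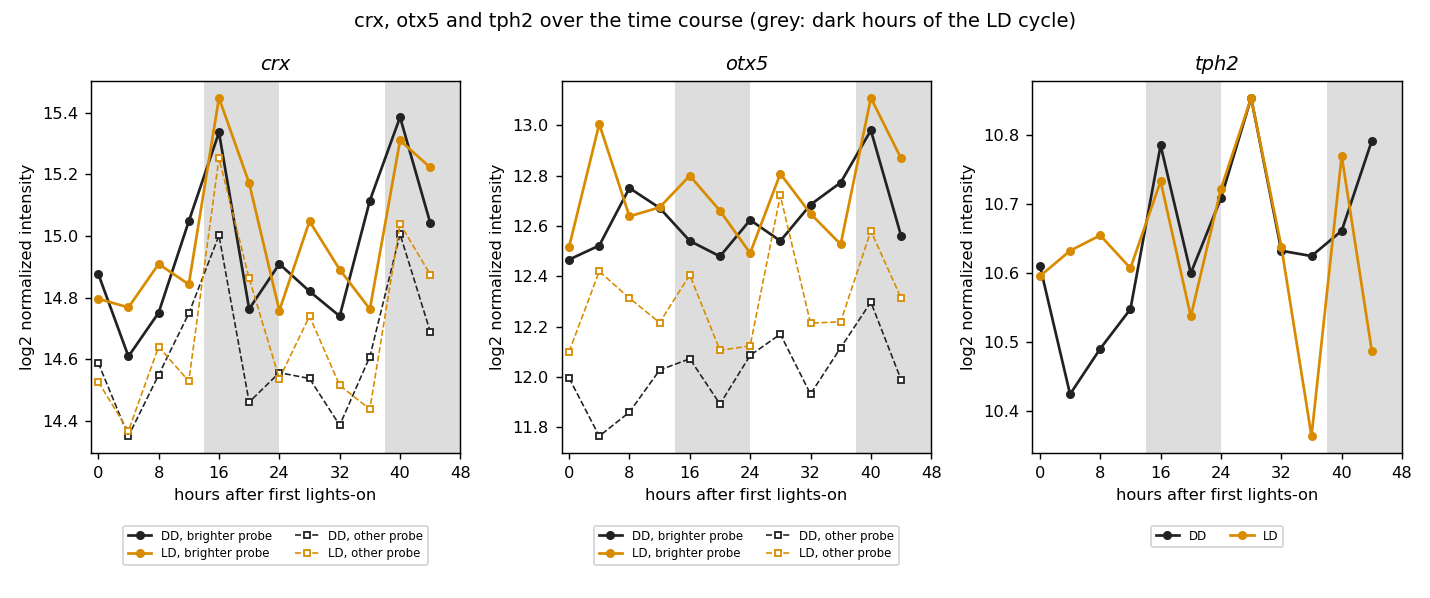
Log2 normalized intensity of crx, otx5 and tph2 (y axis, own range per panel) against hours after the first lights-on (x axis), 1 point per array, in DD (black) and LD (orange), with the brighter probe as filled circles and the other probe as open squares. Both crx probes were highest at 16 or 40 h in each condition, and on the other otx5 probe every DD day array lay below every LD day array.

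Over the members, the g test with a limit of 0.15 and a dominant 24-h period called 1 of 7 in DD, crx, and 4 of 7 in LD, tph1a, exorh, aanat1 and drd4a. Of all probes, 10% were called in DD and 16.9% in LD. With Benjamini-Hochberg adjustment 0 of 7 passed 5% in DD, against 0.0256% of all probes, and 1 of 7, tph1a, passed it in LD (adjusted p = 0.0173), against 1.12%. The limma F test of the 24-h terms called 0 of 7 in DD, against 2.02% of all probes, and 3 of 7 in LD, tph1a, exorh and aanat1, against 5.94%. The rule for both conditions, a g test below 0.5 in each, was met by aanat1, crx, exorh and tph1a, which is 4 of 7 against 12.7% of all probes. Among these, the phases in LD ran from 16.1 h for tph1a over 17.3 h for exorh and 17.4 ± 1.3 h for crx to 19.8 ± 0.7 h for aanat1, and exorh and crx did not differ beyond their errors. All these counts are a description, since the members were chosen with earlier results of these data known.

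**Figure D3:**
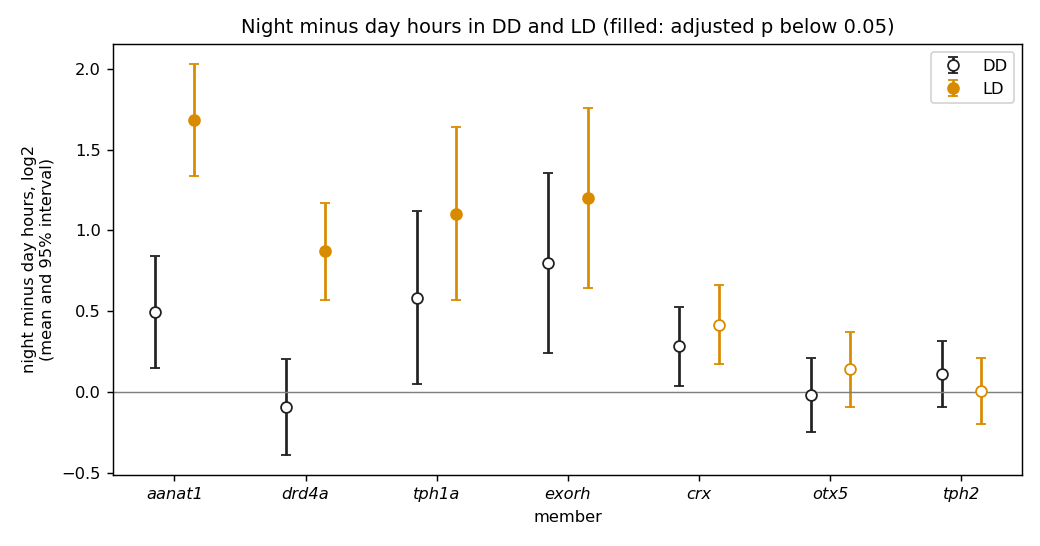
Night minus day difference in log2 normalized intensity (y axis) of each tested member (x axis) in DD (black) and LD (orange), as the limma estimate with its 95% interval. Filled points passed an adjusted p of 0.05, which only the LD differences of aanat1, drd4a, tph1a and exorh did.

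In day hours 2 of the 7 members were called higher in DD than in LD, aanat1 and drd4a, against 1.1% of all probes in this direction and 2.52% in either. The study lists both as dark-induced from these same arrays, so the count is a description and not an independent result. For aanat1 the study also used real-time PCR on other larvae, raised in constant dark or constant light. There aanat1 rose after a move to dark and fell after a move to light. At night 0 of 7 were called, against 0.424% of all probes, and 0 had an unadjusted p below 0.05, against 3355 of 35412. The median DD minus LD difference of the 7 was 0.10 in the day and -0.21 at night, and that of all probes was 0.00 in both. The test of whether the night difference itself differed between the conditions called 0 of 7, against 0.0113% of all probes. An unadjusted p below 0.05 was found for 1151 of 35412 probes and for 2 of the 7 members. These were aanat1, with -1.19 ± 0.24 (p = 5.9e-05, adjusted p = 0.192, limma), and drd4a, with -0.96 ± 0.20 (p = 1.1e-04, adjusted p = 0.275). For tph1a and exorh it was -0.52 ± 0.36 and -0.40 ± 0.38 (adjusted p = 1.00 each). With the slide as a random block aanat1 passed the limit (-1.32, adjusted p = 0.0281), as it did with the time point as a block (-1.19, adjusted p = 0.0441).

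The likeness of the members to each other over the 24 arrays is given as a description, since all arrays share their time points and slides. exorh and tph1a had the highest correlation of any pair (Pearson's r = 0.80, Spearman's rho = 0.78), followed by aanat1 and drd4a (r = 0.75, rho = 0.57). tph2 correlated with exorh and tph1a at r of -0.04 and 0.003. Among 10343 named genes compared, members left out, the 3 most like tph1a were ldhbb (r = 0.90, rho = 0.91), a lactate dehydrogenase subunit, the small GTPase gene rem1 (r = 0.90, rho = 0.89) and arl4d (r = 0.90, rho = 0.88). The most like exorh were fgd (r = 0.93, rho = 0.95), the chromatin protein gene hmgb1a (r = 0.92, rho = 0.93) and the metalloproteinase gene mmp14a (r = 0.91, rho = 0.94).

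For aanat1 they were unc13a (r = 0.87, rho = 0.89), which primes synaptic vesicles, the bHLH repressor gene her9 (r = 0.86, rho = 0.88) and pdzk1ip1 (r = 0.85, rho = 0.86). For drd4a the Notch ligand gene jag1b came first (r = 0.89, rho = 0.87), before gpr39 (r = 0.81, rho = 0.73) and sdcbp (r = 0.78, rho = 0.74). crx was most like snx19a (r = 0.89, rho = 0.76), pcdh10b (r = 0.87, rho = 0.86) and gpr19 (r = 0.87, rho = 0.78). The best values were lower for otx5, with scg2b (r = 0.70, rho = 0.66), plxdc1 (r = 0.70, rho = 0.73) and prom1b (r = 0.68, rho = 0.66), and for tph2, with kalrnb (r = 0.75, rho = 0.77), prox1a (r = 0.72, rho = 0.63) and mpz (r = 0.70, rho = 0.63).

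Of 14 other tested genes of serotonin and melatonin metabolism 0 were higher and 1 was lower at night in LD, against 0.799% and 1.62% of all probes. The lower one was mao, the monoamine oxidase that degrades serotonin. Its night minus day difference was -1.15 ± 0.25 in DD (adjusted p = 0.0372, limma) and -0.99 ± 0.25 in LD (adjusted p = 0.0369). The median night minus day difference of this list was -0.17 in DD and -0.23 in LD, against 0.02 and 0.03 over all probes. By the g test 7 of the 14 were called in LD, against 16.9% of all probes. Their phases were 1.4 h for ddc, which makes serotonin from its precursor, 2.4 h for cyp1b1, 2.6 h for gch2, of the pterin cofactor pathway, 3.4 h for tph1b, 4.3 h for mao, 10.4 h for asmt2 and 22.7 h for cyp1a. The other tph1b probe was not called (p = 0.535). Of 5 tested melatonin receptors 0 were called in either condition by limma, and 0 had an unadjusted p below 0.05.

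Of 8 other genes of dopamine synthesis and reception 1 was called at night in LD, against 2.42% of all probes. This was drd4b, a second D4 receptor, which was lower (-1.54 ± 0.21, adjusted p = 2.2e-04, limma), the opposite direction to drd4a. Of 12 other transcription factors of pineal and photoreceptor cells 0 were called in either condition, with an unadjusted p below 0.05 for 2 in DD and 2 in LD. Of 13 genes of cAMP signalling, which regulates aanat in vertebrates, 0 were called, with an unadjusted p below 0.05 for 1 in DD and 1 in LD. Of 4 other pineal and deep-brain opsins and 5 retinal opsins 0 were called at night in LD, with 2 and 0 below 0.05 unadjusted. Among all 35412 probes, 5377 in DD and 4986 in LD had an unadjusted p below 0.05 (limma). Of 30 genes of the photoreceptor cascade 2 were higher and 5 lower at night in LD, against 0.799% and 1.62% of all probes. The 4 with the largest differences were pde6ga (2.60 ± 0.30, adjusted p = 3.0e-05), guca1aa (2.26 ± 0.60, adjusted p = 0.0472), rcvrn3 (-2.15 ± 0.40, adjusted p = 0.00393) and arr3a (-1.72 ± 0.41, adjusted p = 0.0257).

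At 48 and 50 hpf crx and otx5 were lower in the mitfa morphants than in the 4 controls on all 3 arrays, by 6.83- and 2.61-fold, with adjusted p just above the limit. Per the study its mitfa morphants had smaller eyes than wild type and control morphants. It found the retina to be the most frequent tissue of the genes lowered in them. The other 3 detected members differed by at most 1.31-fold. For aanat1 and exorh the morphants lay above all 4 controls, but for exorh only by 5.474 for the lowest morphant against 5.468 for the highest control. The share of all probes whose groups do not overlap was not counted. Over all 30507 probes tested 1.2% were called (limma, adjusted p below 0.05), and of the 5 members 0 were called. An unadjusted p below 0.05 was found for 4 of the 5, against 6870 of the 30507 probes. The targeted gene mitfa, which drives pigment cell development, had 11.45 to 11.95 in the mitfa morphants, against 7.83 to 8.47 in the controls, so that its mRNA was 11.2-fold higher (adjusted p = 0.00128). The morpholino blocks translation, and mRNA does not check such a knockdown.

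crx had 10.14, 7.97 and 9.86 in the mitfa morphants, against 11.39 and 12.03 in the control morphants and 12.02 and 12.94 in the wild type. The lowest array of all was a morphant at 50 hpf, and no morphant reached the level of a control. The difference was -2.77 ± 0.55 (95% interval -4.03 to -1.51, adjusted p = 0.0532, limma), and -2.81 ± 0.55 on the other probe (adjusted p = 0.0532). It was -1.56 at 48 hpf, with 1 morphant array, and -3.57 at 50 hpf. Without any single array it lay between -3.18 and -2.10.

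otx5 had 9.71, 9.02 and 9.58 in the mitfa morphants, against 10.39 and 10.91 in the control morphants and 10.61 and 11.37 in the wild type. Again the groups did not overlap. The difference was -1.38 ± 0.26 (95% interval -1.98 to -0.78, adjusted p = 0.0520, limma), and -2.23 ± 0.47 on the other probe (adjusted p = 0.0561), with -0.79 at 48 hpf and -1.84 at 50 hpf on the brighter probe. Both crx and otx5 passed the limit with the normexp background correction (adjusted p = 0.0278 and 0.0286) and when only probes above background on all arrays were tested (adjusted p = 0.0464 and 0.0439).

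The melanophore markers dct, tyrp1b and pmela, all 3 detected, did not overlap between the groups either, with summed signals of 12359 to 13493 in the mitfa morphants, against 21131 to 27772 in the controls. The rod markers gnat1 and saga had 30.2 to 42.7, against 32.1 to 137, and the cone markers gnat2 and arr3a 360 to 434, against 390 to 575. Both rod probes were dim, at log2 values of 4.01 to 6.33 for gnat1 and 3.66 to 5.81 for saga, which limits the rod sums. Their other probes were above background on 1 and 4 of the 7 arrays. The liver marker fabp10a had 32.3 to 109, against 50.7 to 514 (-1.28 ± 0.74, adjusted p = 0.342, limma). The muscle markers ckma and mylpfa had 205188 to 220580, against 206313 to 224141. The lens marker cryba1b had 70245.5 to 93255.2, against 20691.5 to 83658.6. Of the 12 other transcription factors of pineal and photoreceptor cells 0 were called, with an unadjusted p below 0.05 for 8, against 6870 of the 30507 probes. Among them neurod1 had a difference of -1.41 ± 0.37 (adjusted p = 0.0830, limma) and otx2b one of -0.94 ± 0.20 (adjusted p = 0.0564). In the morphants 4 of the 12 were higher, among them the homeobox genes rx1 by 0.73 and rx2 by 0.28 on their brightest probes. The median of the 12 was -0.33, against 0.01 over all probes. Each slide of these arrays held 1 age, so age and slide cannot be told apart. The part of eye size and of these markers and factors in the crx and otx5 results was not tested.

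**Figure D4:**
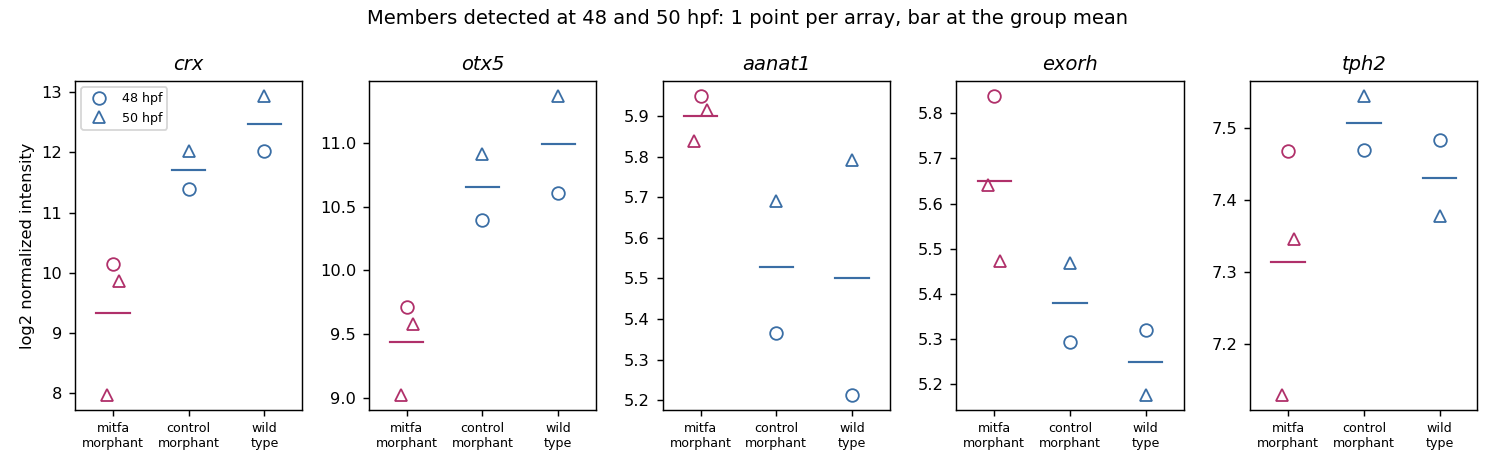
Log2 normalized intensity (y axis, own range per panel) of the 5 members detected at 48 and 50 hpf in mitfa morphants (purple), control morphants and wild type (blue), 1 point per array, with circles at 48 hpf, triangles at 50 hpf and a line at the mean of each group. The 3 morphant arrays lay below all 4 controls for crx and otx5, above them for aanat1 and, by a narrow margin, exorh, and overlapped with them for tph2.

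aanat1 had 5.95, 5.84 and 5.92 in the mitfa morphants, against 5.36 and 5.69 in the control morphants and 5.21 and 5.79 in the wild type. The morphants were higher on all 3 arrays by 0.39 ± 0.16 (adjusted p = 0.205, limma). exorh was 5.84, 5.64 and 5.47 in the mitfa morphants, against 5.29 and 5.47 in the control morphants and 5.32 and 5.18 in the wild type, a difference of 0.34 ± 0.13 (adjusted p = 0.182). At 48 hpf, with 1 morphant array, the differences were 0.66 for aanat1 and 0.53 for exorh, and at 50 hpf 0.14 and 0.23. Both genes were above background on all 7 arrays but dim. Their processed signals were 37.0 to 70.7 for aanat1 and 29.2 to 65.6 for exorh, around the array medians of 41.9 to 60.4. tph2 averaged 7.31 ± 0.17 in the mitfa morphants and 7.47 ± 0.07 in the controls (SD, n = 3 and 4, adjusted p = 0.489).

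The remaining members were near background at this age. drd4a was above background on 4 of the 7 arrays and tph1a on 1 of the 7, and neither was tested. Within these embryos the processed signals of drd4a ranged from 1.62 to 27.98 and those of tph1a from 1.35 to 8.19. Both genes had been well above background on all 24 arrays of the older larvae, which were normalized apart.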

How the data were processed

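The intensity of each spot was deposited by the authors as Feature Extraction output (version 10.5.1 per the labels, 10.7.3.1 per the file headers), background-subtracted and detrended within the array. The authors also deposited log2 values that they had quantile normalized set by set, which served as an alternative. They correlated with the values used here at r of at least 0.9999. Here processed signals were log2 transformed, outlier spots set to missing, spots of a probe averaged and each set quantile normalized in limma 3.58.1 (R 4.3.3). No spot was saturated. The number of arrays limits the precision.

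Probes were named through their accession. One limma fit of 6 group means (day, night and lights-on hours of DD and LD) gave the time-course contrasts and another the morphant contrast, adjusted after Benjamini-Hochberg over every probe that passed detection, with a limit of 5%. Fisher's g test covered the periods of 48, 24, 16, 12 and 9.6 h and left out 303 probes with a missing value. Phases came from 24-h cosine fits. The code was tested on simulated data. Likeness was sought among genes whose symbol is not a clone or locus name. The text names all members, the 3 genes most like each detected member and, of each other list, at most 4 genes called at night in LD by size of difference. tph1b, asmt2, ddc, gch2, cyp1a, cyp1b1, neurod1, otx2b, rx1 and rx2 fall outside this rule and were chosen after their values were seen. The members and lists were chosen with earlier results of these data known. Tables and figures were made in Python 3.11.15 with pandas 2.3.3 and matplotlib 3.10.9.

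Alternatives were scaling to the 75th percentile, normexp with an offset of 50 on median spot and background signals, the deposited values, other detection filters, detrending by a straight line, the F test, slide, age or time point as a block, either cycle, either kind of control and each array left out.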

Additional observations from a re-analysis of the deposited data

Results flagged for a closer look

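Of 33 groups of 4 to 6 values of a detected member, 1 held a value far from the others, where chance gives about 1 in 20. This was otx5 at the night hours of DD, where the array at 40 h had 12.98 and the other 3 had 12.48 to 12.56.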

How the results depend on the processing

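The direction of every called difference of a member was kept under all alternatives, and reversals touched only differences near 0. In DD the count of members called at night was 1 with the first cycle only. In LD the count called higher at night fell to 2 with hours 0 and 24 counted as night, to 2 with the first cycle only (tph1a and drd4a lost, adjusted p = 0.0906 and 0.180) and to 1, aanat1, with the second only, and lay between 2 and 5 when single arrays were left out, the lowest without the array at 16 h. For DD against LD in the day it was 1 with the second cycle only, where aanat1 had an adjusted p of 0.0596. The difference of night minus day between conditions was called for 1 member, aanat1, with the slide as a random block and with the time point as a replicate block (adjusted p = 0.0441). Per the study's methods all larvae were shared out to dishes together and the DD and LD pools of an hour were taken at the same time. Their deviations from the group means correlated above 0.1 for 11 of 12 pairs, from 0.06 to 0.65. Each group mixes hours, so these values cannot tell a pairing of pools from a shared time of day. The lights-on groups held 2 arrays each, so the values at 0 and 24 h, both 0.16, are not separate. The time-point block changed no other call of a member, and the random slide block also brought crx at night in LD past the limit. The morphant comparison called 2 with normexp and 2 with detection on all arrays, and without any single array it called 0. The g test called 2 in DD and 2 in both conditions after a straight line was removed, and the limma F test called 0 in DD.

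Reversed night minus day differences were, in DD, 0.10 for otx5 and 0.0010 for drd4a with the second cycle only, and between -0.13 and 0.037 for otx5 without single arrays. In LD they were -0.00044 for tph2 with normexp, -0.011 and -0.017 with the slide as a random or fixed block, -0.042 for otx5 with the first cycle only, and for tph2 between -0.045 and 0.055 without single arrays. Reversed DD minus LD differences were, in the day, 0.0047 for otx5 and 0.085 for tph2 with the second cycle only, and without single arrays -0.077 to 0.025 for crx and -0.081 to 0.016 for tph2. At night they were 0.12 and 0.045 for drd4a with hours 0 and 24 as night and with the first cycle only, and -0.20 to 0.11 without single arrays. The causes were not tested. Signals near background limit aanat2 throughout and drd4a and tph1a at 48 and 50 hpf.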

Other observations

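neurod1 and opn3 were among several genes of the other lists with a called 24-h period in DD and in LD. The phases in the 2 conditions were not tested against each other. The transcription factor gene neurod1 had a phase of 13.4 h in DD and 10.8 h in LD, with amplitudes of 0.56 and 0.68. The opsin gene opn3 had 12.9 h in DD and 10.2 h in LD, with amplitudes of 0.47 and 0.66. Of the 30 genes of the photoreceptor cascade, 16 were called in DD and 18 in LD, against 10% and 16.9% of all probes. Some of these had an earlier phase in DD, such as arr3a with 3.3 h, against 5.0 h in LD. In day hours opn4.1, a melanopsin, was lower in DD than in LD (-0.75 ± 0.12, adjusted p = 0.00141, limma), as were drd3 (-0.65 ± 0.13, adjusted p = 0.00500) and th, the tyrosine hydroxylase of dopamine synthesis (-0.40 ± 0.09, adjusted p = 0.0147). These genes were chosen after their values were seen.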
